A study of Mus musculus with 2 samples.

Results

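Gzma, Gzmb, Prf1, Nkg7, Ctsw and Srgn, the 6 genes of the cytotoxic granule followed here, were taken by symbol from the 27998 gene identifiers of the count tables, and each symbol had 1 identifier. They were read in natural killer (NK) cells, CD8 T cells, other T cells and plasmacytoid dendritic cells, which were picked out by marker genes with the 6 genes left out of the clustering. The cytotoxic granule is a secretory lysosome that killer lymphocytes empty onto a target cell. Prf1 (perforin) opens pores in the target's membranes, the granzymes are serine proteases that enter through them and trigger death, and Srgn (serglycin) is the proteoglycan on which the cargo is stored. NK cells and effector CD8 T cells are the classic carriers of the whole set, whereas Srgn and Nkg7 are also known from granulocytes and other blood cells.

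The cells were sorted from the hindlimb muscle of Fsp1-Cre:R26R-EYFP mice as YFP+CD11b-. In these mice the Fsp1 (S100a4) promoter drives Cre, and a cell that has once made Cre stays YFP-positive, as do its descendants. The day 28 library came from mice that had undergone surgery to make the hindlimb ischemic 28 days before, and the day 0 library from mice without surgery. Both groups carried the same reporter and passed the same sort, and the age, sex and number of mice are not given in the sources used here. Each group is 1 library, so no difference between them has a replicate check and no p-value is given. Levels are counts per 1000000 (CPM) of the summed unique molecular identifiers (UMIs, 1 per captured transcript), and every interval is exact at 95% and covers counting error only.

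The day 28 library held 2653 barcodes and the day 0 library 2668, beside 5000 captured cells in the design text. Their median depths were 12265 and 4844 UMIs, and 13 barcode sequences occurred in both. After filtering, 2580 day 28 and 2609 day 0 cells remained. NK cells, which had no Cd3 UMI and at least 2 UMIs of 11 NK markers, numbered 13 on day 28 and 18 on day 0. CD8 T cells numbered 29 on day 28 and 578 on day 0, which is 1.12% and 22.2% of the kept cells. Other T cells, with at least 2 Cd3 UMIs but no Cd8a or Cd8b1 UMI, numbered 49 and 339, and plasmacytoid dendritic cells 169 and 148. Median depth within the 4 classes lay between 4832 and 5497 UMIs on day 28 and between 3475 and 4493 on day 0.

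Markers were then read in the classes. The NK markers picked out the NK cells, so their presence there is no check of the label. The NK receptor gene Ncr1, 1 of them, stood at 235 CPM in day 28 and 391 CPM in day 0 NK cells. All 11 NK markers were detected in both. Ptprc, the pan-leukocyte gene CD45, stood at 459 and 607 CPM there, S100a4 at 179 and 175 CPM, and Itgam, the gene of CD11b, had no UMI in either. B cell markers were present in the day 0 NK cells: all 7 were detected and summed to 1443 CPM (0 to 41 UMIs per cell). In the day 28 NK cells 2 of the 7 were detected, they summed to 22.4 CPM (0 to 1 per cell) and Ms4a1 was at 0. Markers of neutrophils ran the other way, at 358 CPM in day 28 and 108 CPM in day 0 NK cells with 4 of 7 detected in each. Of 7 dendritic cell markers 2 were detected in each, at 123 CPM in day 28 and 849 CPM in day 0 NK cells. The summed NK markers themselves stood at 3144 CPM in day 28 and 5433 CPM in day 0 NK cells. Other T cells were set apart from CD8 T cells only by the absence of Cd8 UMIs. A Cd4 UMI was seen in 7 of 49 day 28 and 81 of 339 day 0 other T cells. Exactly 1 Cd8 UMI was seen in 9 of 29 day 28 and 56 of 578 day 0 CD8 T cells. How many other T cells were CD8 T cells with missed Cd8 transcripts was not tested. At least 2 NK marker UMIs were also seen in 64 day 28 and 528 day 0 T cells. The median NK cell had 20 on day 28 and 22 on day 0, against 3 and 2 in CD8 T cells and 4 and 1 in other T cells. A Cd8a or Cd8b1 UMI was seen in 0 day 28 and 2 day 0 NK cells. On day 0, 1 NK cell lay in the cluster led by Dapl1 and Lef1 that is described below. How many NK cells were T cells with missed Cd3 transcripts was not tested.

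On the mm10 (GRCm38) build with GENCODE M21, Gzma (ENSMUSG00000023132) lies on the minus strand of chromosome 13 from 113093825 to 113100981. Gzmb (ENSMUSG00000015437) lies on the minus strand of chromosome 14 from 56258838 to 56262260. Prf1 (ENSMUSG00000037202) occupies 61297833 to 61304680 on the plus strand of chromosome 10, where Srgn (ENSMUSG00000020077) occupies 62493833 to 62527451 on the minus strand. Nkg7 (ENSMUSG00000004612) is a short gene on the plus strand of chromosome 7, from 43437073 to 43438249. Ctsw (ENSMUSG00000024910) runs from 5465043 to 5468507 on the minus strand of chromosome 19 and overlaps Fibp on the plus strand. Whether reads were assigned by strand is not given in the sources used here, so reads of Ctsw and Fibp may not be separable. The other 5 genes overlap no annotated gene.

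The sequences just upstream of 4 genes are shown because these are the granzyme, perforin and Nkg7 genes. Gzma was found mostly in NK cells, Gzmb in few cells of each lymphocyte class, Prf1 in few day 0 lymphocytes and in no day 28 lymphocyte, and Nkg7 in most NK and CD8 T cells. Each runs 5′ to 3′ toward the RefSeq start of the gene (GRCm38.p6) and ends there, or, for Prf1 and Nkg7, where the GENCODE gene begins. They cover chr13:113100982-113101231 (minus strand), chr14:56262335-56262584 (minus), chr10:61297586-61297832 (plus) and chr7:43436888-43437072 (plus). Capitals mark, on either strand, the core letters GTGTGA bound by T-box factors, TGTGGT bound by Runx factors and GGAAGT bound by Ets factors.
Gzma: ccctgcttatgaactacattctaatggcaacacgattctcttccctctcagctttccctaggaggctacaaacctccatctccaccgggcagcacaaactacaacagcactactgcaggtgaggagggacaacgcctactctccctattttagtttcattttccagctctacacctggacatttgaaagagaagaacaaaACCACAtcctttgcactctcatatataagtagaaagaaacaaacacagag
Gzmb: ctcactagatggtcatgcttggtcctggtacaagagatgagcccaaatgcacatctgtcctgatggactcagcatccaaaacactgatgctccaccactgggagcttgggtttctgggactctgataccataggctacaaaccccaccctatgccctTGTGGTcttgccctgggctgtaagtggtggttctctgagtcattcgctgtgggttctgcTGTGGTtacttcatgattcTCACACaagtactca
Prf1: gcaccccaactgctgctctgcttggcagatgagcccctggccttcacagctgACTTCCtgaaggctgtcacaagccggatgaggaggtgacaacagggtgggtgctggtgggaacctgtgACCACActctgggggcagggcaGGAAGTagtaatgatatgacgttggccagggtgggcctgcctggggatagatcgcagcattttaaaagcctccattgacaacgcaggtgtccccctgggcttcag
Nkg7: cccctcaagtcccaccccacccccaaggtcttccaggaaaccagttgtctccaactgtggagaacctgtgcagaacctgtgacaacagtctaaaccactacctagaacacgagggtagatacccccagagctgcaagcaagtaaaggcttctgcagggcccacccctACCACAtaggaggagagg
TGTGGT or its reverse complement was found in 5 of the 6 RefSeq windows of 250 bases that exist for Gzma, Gzmb, Prf1, Nkg7 and the 2 starts of Srgn, against 14% of 32536 windows of that length over all genes. GTGTGA was found in 2 of the 6 and in 12.1% of all windows, and GGAAGT in 2 of the 6 and in 19.8%. Gzmb held TGTGGT at 93 and 34 bases before its start and GTGTGA, on the opposite strand, at 15 bases. Nkg7 held GTGTGA at 12 bases before the RefSeq start, which lies past the printed stretch. No matches overlapped each other. These are letters in a window and not measured binding.

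The question put to each class was how far the 6 genes differed between day 28 and day 0. Gzmb was higher on day 28 in NK, CD8 T and other T cells, with an interval that included 1 in NK cells, and Ctsw was lower in NK cells. A gene was counted as different at a ratio of at least 2 or at most 0.5, with a mean of at least 10 CPM and at least 10 UMIs in the 2 sums together. In NK cells 5 of the 6 genes reached those levels, of which 1 (Gzmb) was higher on day 28 and 1 (Ctsw) lower, while 9.43% of all 1930 genes read in NK cells were higher and 16.1% lower. In CD8 T cells 5 genes were read, 2 (Gzma and Gzmb) were higher and 0 lower, against 9.77% and 15.4% of 5632 genes. In other T cells 5 were read, 3 (Gzma, Gzmb and Nkg7) were higher and 0 lower, against 7.6% and 13.1% of 6433 genes. In plasmacytoid dendritic cells 3 were read and none passed in either direction, against 3.42% and 5.41% of 6950 genes. The shares of higher genes in CD8 T and other T cells were above these background shares, but the Gzma counts rested on single cells: all 6 day 28 Gzma UMIs of CD8 T cells lay in 1 cell, and without it Gzmb was the 1 gene of the set that was higher. Counts of 1 or 0 among so few genes cannot be told from the background. In cells without a Cd79a, Ms4a1 or Elane UMI the count was 1 in CD8 T and 0 in other T cells. The 1 in CD8 T cells was not a granzyme higher on day 28. Every day 28 CD8 T cell with a Gzma or Gzmb UMI also had an Elane UMI. In other T cells the count was 1 without the single cell, of either library, that had the most UMIs of the gene. Without the highest cell of each library it was 2 in other T cells (Gzmb and Nkg7) and 2 in CD8 T cells (Gzmb higher, Ctsw lower at 0.495). Markers of B cells summed to 80.5 CPM in day 28 and 253 CPM in day 0 CD8 T cells, and to 181 and 1375 CPM in other T cells. In NK cells the median log2 ratio of genes with at least 50 CPM in both sums was -0.12, and that shift altered no call of the 6 genes.

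**Figure D1:**
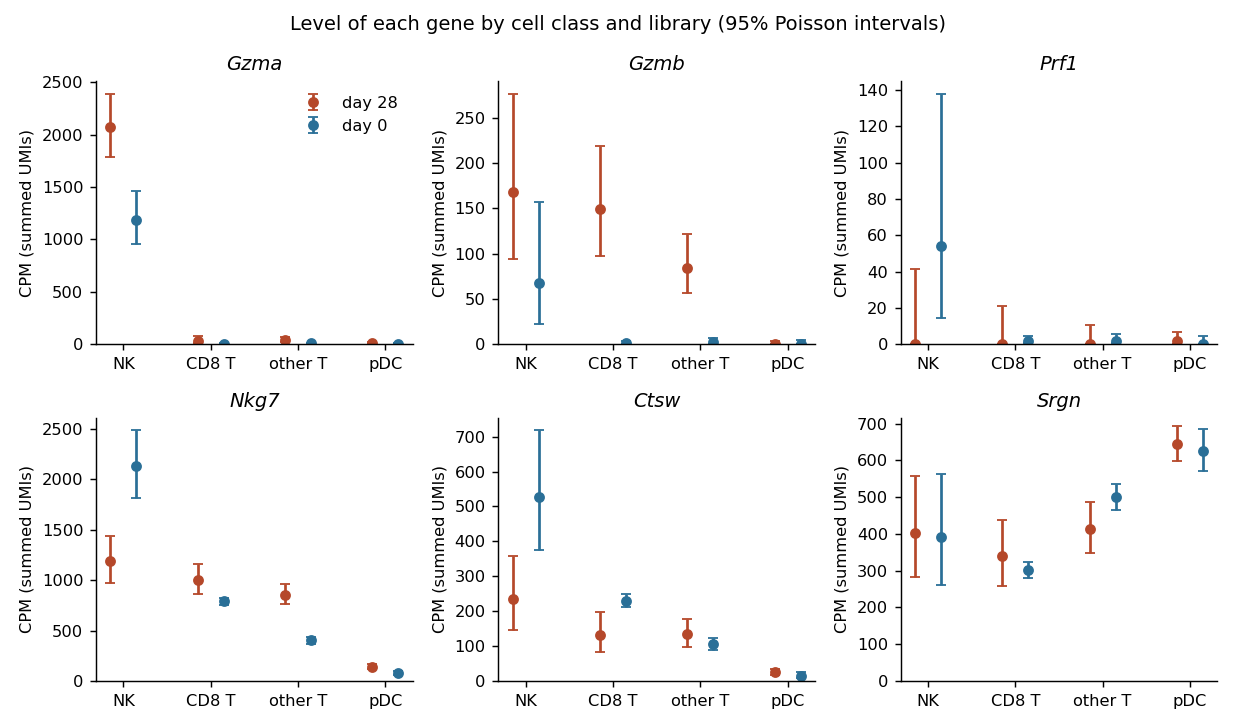
Level of each of the 6 genes (CPM of summed UMIs, linear axis from 0) in NK, CD8 T, other T and plasmacytoid dendritic (pDC) cells, with day 28 left of day 0 and exact Poisson 95% intervals. Gzma stands at 2070 CPM in day 28 and 1186 CPM in day 0 NK cells and far lower in the other classes, and Srgn is highest in pDC in both libraries.

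Gzma, the gene of granzyme A, a trypsin-like protease and an abundant granzyme of NK cells, was an NK transcript in both libraries. NK cells carried 185 Gzma UMIs on day 28 (2070 CPM, 1782 to 2391) and 88 on day 0 (1186 CPM, 952 to 1462), and they held 69.8% and 52.4% of all Gzma UMIs of their library. These shares depend on the gate, and cells outside the 4 classes held 48 and 55 Gzma UMIs. Among the latter were 2 day 28 and 9 day 0 cells of the lymphocyte clusters with 1 Cd3 UMI and at least 2 NK marker UMIs. The ratio of day 28 to day 0 was 1.74 (1.35 to 2.28). The lowest NK cell had 0 UMIs, the median cell 1 and the highest 108 on day 28, and the lowest had 0, the median 1 and the highest 30 on day 0. A single day 28 cell thus held 58.4% of the day 28 sum, and without that cell the ratio was 0.770. Without the highest cell of each library it was 1.01. At least 1 Gzma UMI was seen in 7 of 13 day 28 cells and 11 of 18 day 0 cells, and the distributions overlapped.

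In the other classes Gzma rested on single cells. In CD8 T cells it had 6 UMIs on day 28, all in 1 of 29 cells, and 13 on day 0, of which 9 lay in 1 of 578 cells. In other T cells it had 13 UMIs on day 28 (37.9 CPM) and 11 on day 0 (7.15 CPM), a ratio of 5.30, but 11 of the 13 lay in 1 cell and 10 of the 11 in 1 cell. The ratio was 0.848 without the 1 day 28 cell, and without both cells 2 day 28 UMIs and 1 day 0 UMI remained. Plasmacytoid dendritic cells had 13 UMIs on day 28 and 1 on day 0, and 11 of the 13 lay in 1 cell that also had 11 Siglech, 123 Ccl5 and 34 NK marker UMIs. After NK cells, the order of the classes (other T, CD8 T, plasmacytoid dendritic cells) was not resolved, since each interval of neighbouring levels included equality in both libraries. In B-like clusters, which should lack the gene, Gzma was at 0.785 CPM on day 28 and 0.308 CPM on day 0.

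Gzmb, the gene of granzyme B, which cleaves caspases and other substrates of the death pathway, was higher on day 28 in all 3 lymphocyte classes. CD8 T cells carried 26 Gzmb UMIs in 29 cells on day 28 (149.6 CPM, 97.7 to 219) and 3 UMIs in 578 cells on day 0 (1.22 CPM, 0.252 to 3.57), a ratio of 122 (37.5 to 632). The 26 UMIs lay in 3 cells, with 12, 10 and 4 each, and the 3 day 0 UMIs in 3 cells with 1 each. Other T cells carried 29 UMIs in 49 cells on day 28 (84.5 CPM, 56.6 to 121) and 4 in 339 cells on day 0 (2.60 CPM, 0.708 to 6.65), a ratio of 32.5 (11.4 to 127). Of the 49 day 28 cells 7 had a Gzmb UMI, with 11, 9 and 5 in the highest 3, and of the 339 day 0 cells 3 had one, with 2 in the highest. Without the highest cell, which was a day 28 cell in each class, the ratios were 68.2 in CD8 T and 20.99 in other T cells. NK cells carried 15 UMIs on day 28 (168 CPM, 93.9 to 277) and 5 on day 0 (67.4 CPM, 21.9 to 157), and the ratio of 2.49 had an interval of 0.860 to 8.76 that included 1. Without the highest day 28 cell it was 1.23, and without the highest cell of each library 2.77.

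The share of cells with a Gzmb UMI was 10.3% of day 28 CD8 T cells (Clopper-Pearson interval 2.19% to 27.4%) and 0.519% of day 0 CD8 T cells (0.107% to 1.51%). It was 14.3% (5.94% to 27.2%) and 0.885% (0.183% to 2.56%) in other T cells. With every cell thinned to 3000 UMIs the shares were 6.90% on day 28 and 0.346% on day 0 in CD8 T cells, and 8.16% and 0.885% in other T cells. No cell of the B-like clusters had one (0 of 256 at a median of 8167 UMIs on day 28, 0 of 567 at 4288 UMIs on day 0), and in erythroid-like clusters 2 of 202 day 28 cells and 0 of 128 day 0 cells did. Plasmacytoid dendritic cells had no Gzmb UMI in 169 day 28 cells or 148 day 0 cells.

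Gzmb-bearing T cells of day 28 mostly lacked Gzma. The CD8 T cells with 12, 10 and 4 Gzmb UMIs had 19, 24 and 26 Nkg7 UMIs, 74, 95 and 116 Ccl5 UMIs and no Gzma or Prf1 UMI. They had 31, 22 and 2 UMIs of the 11 NK markers and 1, 7 and 3 Cd8a or Cd8b1 UMIs, so the first stood at the 1 Cd8 UMI that set CD8 T cells apart. The other T cell with 11 Gzmb UMIs also had 11 Gzma, 31 Nkg7 and 33 Cd3 UMIs, and the one with 9 had 1 Gzma, 28 Nkg7 and 14 Cd3 UMIs. Those 2 cells had 5 and 0 NK marker UMIs. None of these 5 cells had a Cd79a UMI, and each had 1 to 3 Elane UMIs. Among NK cells, 3 of 13 day 28 and 2 of 18 day 0 cells had both granzymes.

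**Figure D2:**
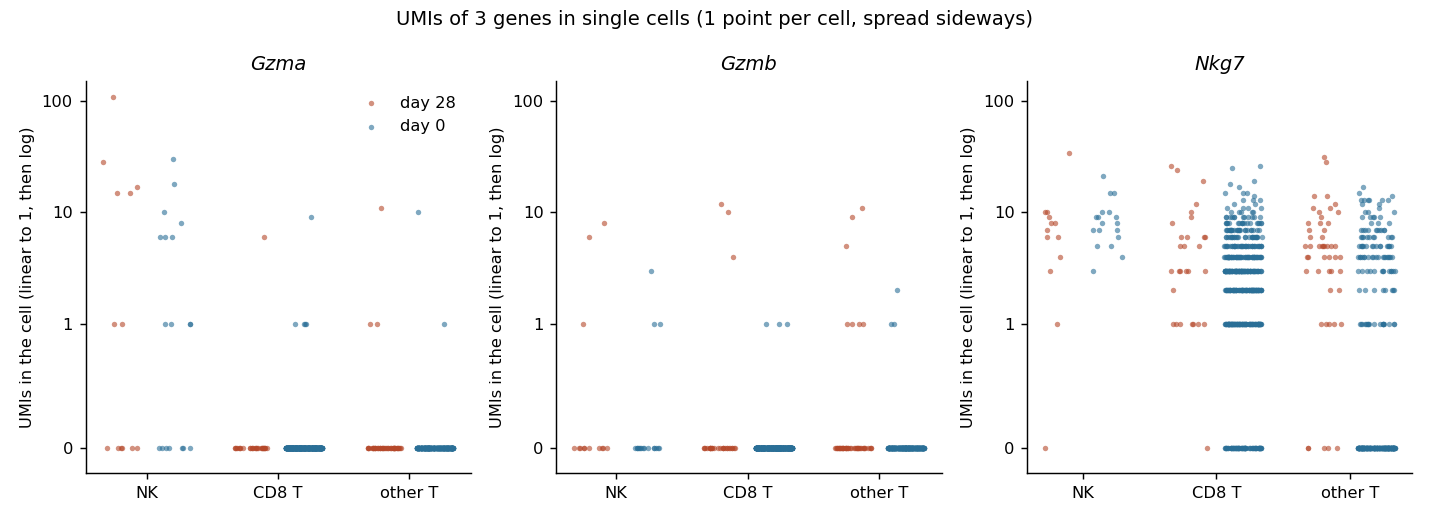
UMIs of Gzma, Gzmb and Nkg7 in every NK, CD8 T and other T cell (1 point per cell, day 28 left of day 0; the axis is linear up to 1 UMI and logarithmic above). Gzma is spread over NK cells with 1 day 28 cell at 108 UMIs, Gzmb over few cells of each class, and Nkg7 over most NK and CD8 T cells.

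Prf1 was close to undetected. It had 0 UMIs in day 28 NK cells, where a count of 3 would be 33.6 CPM, and 4 UMIs in 4 of 18 day 0 NK cells (53.9 CPM, 14.7 to 138). In CD8 T cells it had 0 UMIs in 29 day 28 cells and 5 in 4 of 578 day 0 cells, and in other T cells 0 in 49 and 3 in 339. By a floor of 3 counts, the 0 of 13, 0 of 29 and 0 of 49 day 28 cells allow shares of cells with a Prf1 UMI of up to 23.1%, 10.3% and 6.12%. Day 0 shares were 22.2%, 0.692% and 0.885%, and the intervals of the day 28 and day 0 levels overlapped in each class, so a difference was not detectable at this depth. NK cells, CD8 T cells and other T cells together held 12 of the 15 Prf1 UMIs of the day 0 library. The day 28 library held 2 Prf1 UMIs in all, both in plasmacytoid dendritic cells, and 1 of the 2 lay in the cell with 11 Gzma UMIs. At day 0 all 4 NK cells with Prf1 also had a granzyme UMI.

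Nkg7 encodes a small membrane protein of the granule that mouse NK and CD8 T cells need for full degranulation, and it was detected in most NK and CD8 T cells. It was lower on day 28 in NK cells and higher in both T cell classes. NK cells carried 106 UMIs on day 28 (1186 CPM, 971 to 1435) and 158 on day 0 (2130.2 CPM, 1811 to 2490), a ratio of 0.557 (0.431 to 0.717). The lowest NK cell had 0, the median 7 and the highest 34 UMIs on day 28, against 3, 8 and 21 on day 0, so the cells overlapped. Without the highest day 28 cell the ratio was 0.401, without the highest cell of each library it was 0.416, and in the 6 day 28 and 10 day 0 NK cells without a Cd79a, Ms4a1 or Elane UMI it was 0.803. CD8 T cells carried 174 UMIs on day 28 (1001 CPM, 858 to 1161) and 1945 on day 0 (792 CPM, 757 to 828), a ratio of 1.26. Other T cells carried 293 on day 28 (853 CPM, 758 to 957) and 618 on day 0 (401 CPM, 370 to 434), a ratio of 2.13 (1.84 to 2.45). At day 28 the NK, CD8 T and other T levels followed each other without a resolved step, whereas on day 0 each step down that order had an interval above 1 (2.69 from CD8 T to NK cells and 1.97 from other T to CD8 T cells).

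The T cell classes differed in make-up between the libraries, and the direction of the Nkg7 difference was not the same in each cluster. A cluster led by Ccl5, Ms4a4b and Xcl1 held 22 of the 29 day 28 CD8 T cells and 105 of the 578 on day 0, whereas a cluster led by Dapl1, Lef1 and Tcf7, genes of resting T cells, held 6 on day 28 and 443 on day 0. Inside the Ccl5 and Xcl1 cluster Nkg7 was lower on day 28 in all 3 classes. It stood at 1045 CPM in day 28 and 1400 CPM in day 0 CD8 T cells (ratio 0.747, 0.614 to 0.902), at 1066 and 1518 CPM in other T cells (0.702, 0.587 to 0.836), and at 1186 and 2144 CPM in NK cells (0.553). In the Dapl1 and Lef1 cluster it stood at 647 CPM in 6 day 28 cells and 665 CPM in 443 day 0 CD8 T cells, a ratio of 0.973 (0.574 to 1.54). These comparisons by cluster were added after the values had been seen.

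In another cluster Nkg7 was higher in other T cells of day 28. This cluster, led by Cd3g and by Icos and Tnfrsf4, costimulatory receptor genes of activated T cells, held 17 day 28 and 154 day 0 other T cells. Nkg7 stood there at 709 CPM (588 to 848) on day 28 and 61.9 CPM (46.4 to 81.0) on day 0, a ratio of 11.5 (8.23 to 16.2). Of the 17 day 28 cells 12 had a Nkg7 UMI, with a median of 4 and a highest of 31, against 22 of the 154 day 0 cells, with a median of 0 and a highest of 10. Thinned to 3000 UMIs, 11 of 17 and 15 of 154 cells had one. Over all other T cells Foxp3 stood at 2.91 CPM on day 28 and 29.9 CPM on day 0, and Cd4 at 26.2 and 72.8 CPM. Whether the make-up of other T cells inside this cluster differed between the libraries, and its part in the Nkg7 ratio, was not tested. Median depth in that cluster was 8709 UMIs on day 28 and 4582 on day 0. Elane, the neutrophil elastase gene, stood at 130 CPM in those day 28 cells and 23.4 CPM in those day 0 cells. In the cluster with the highest Elane level there were 0.141 Nkg7 UMIs per Elane UMI on day 28 and 0.0888 on day 0, and at those ratios the Elane UMIs would carry 18.3 and 2.07 CPM of Nkg7. In B-like clusters Nkg7 stood at 40.1 CPM on day 28 and 18.5 CPM on day 0, beside 17.3 and 2.65 CPM at those ratios. In erythroid-like clusters it stood at 53.3 and 51.0 CPM, beside 24.1 and 2.21 CPM. The values from Elane lay under the measured levels there, and the part of background transcripts in the ratio of 11.5 was not tested.

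Ctsw, the gene of cathepsin W, a papain-family protease found mainly in NK and CD8 T cells, went with Nkg7 in NK cells and inside the Ccl5 and Xcl1 cluster. NK cells carried 21 UMIs on day 28 (235 CPM, 145 to 359) and 39 on day 0 (526 CPM, 374 to 719), a ratio of 0.447 (0.2498 to 0.779). The lowest cell had 0, the median 1 and the highest 4 UMIs on day 28, against 0, 2 and 6 on day 0. In NK cells without a Cd79a, Ms4a1 or Elane UMI the ratio was 0.395. CD8 T cells carried 23 on day 28 (132 CPM, 83.9 to 199) and 566 on day 0 (230.3 CPM, 212 to 250.1), a ratio of 0.574, and other T cells 46 (134 CPM) and 161 (105 CPM), a ratio of 1.28 with an interval that included 1. Inside the Ccl5 and Xcl1 cluster Ctsw was lower on day 28 in each class, at 235 and 550.1 CPM in NK cells (0.427), 177 and 419 CPM in CD8 T cells (0.422, 0.259 to 0.657) and 151 and 376 CPM in other T cells (0.403, 0.249 to 0.626). Of the other T cells there, 14 of 29 on day 28 and 72 of 88 on day 0 had a Ctsw UMI. Inside the Icos and Tnfrsf4 cluster it stood at 130.1 CPM on day 28 and 16.4 CPM on day 0, a ratio of 7.96 (3.89 to 16.8), and 13 of 17 day 28 and 9 of 154 day 0 cells had a UMI.

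The Gzmb ratio went the other way from those of Nkg7 and Ctsw inside the Ccl5 and Xcl1 cluster, but it rested on few cells. Gzmb stood there at 177 CPM in day 28 and 6.31 CPM in day 0 CD8 T cells (ratio 28.0, 8.41 to 146), at 69.4 and 11.7 CPM in other T cells (5.95, 1.76 to 25.6), and at 168 and 70.5 CPM in NK cells (2.38, 0.822 to 8.37). The 22 day 28 UMIs of those CD8 T cells lay in cells with 12 and 10 each. Of the 11 day 28 UMIs of those other T cells 9 lay in 1 cell, and of the 15 of NK cells 8 lay in 1 cell. Inside the Icos and Tnfrsf4 cluster 4 of 17 day 28 and 0 of 154 day 0 other T cells had a Gzmb UMI, and against a floor of 3 UMIs the level was at least 30.4-fold higher on day 28, with 11 of the 18 UMIs in 1 cell.

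Srgn differed little between the libraries. NK cells carried 36 UMIs on day 28 (403 CPM, 282 to 558) and 29 on day 0 (391 CPM, 262 to 562), a ratio of 1.03, and CD8 T cells 59 (339 CPM) and 738 (300.3 CPM), a ratio of 1.13. Other T cells carried 142 on day 28 (414 CPM, 348 to 488) and 770 on day 0 (500.2 CPM, 466 to 537), a ratio of 0.827 (0.686 to 0.990). Plasmacytoid dendritic cells carried 691 on day 28 (644 CPM, 597 to 694) and 488 on day 0 (626 CPM, 572 to 684), a ratio of 1.03, and they stood above the other 3 classes in both libraries. By cluster their Srgn ratios lay on either side of 1. It was 1.25 (1.09 to 1.45) in the cluster led by Siglech and 0.704 (0.571 to 0.868) in the plasmacytoid dendritic cells of other clusters. The median plasmacytoid dendritic cell had 3 Srgn UMIs on day 28 and 2 on day 0, and the highest had 63 and 102. Srgn was detected in 12 of 13 day 28 and 15 of 18 day 0 NK cells, and also in 94.5% of day 28 and 88.5% of day 0 cells of the B-like clusters, so its presence did not separate killer lymphocytes from other cells.

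Plasmacytoid dendritic cells, interferon-producing cells named here from Siglech and 4 further genes, carried little of the set besides Srgn. Nkg7 stood at 143 CPM in day 28 and 75.7 CPM in day 0 cells (ratio 1.88), but 47 of the 59 day 0 UMIs lay in 1 cell of the Elane cluster. Without that cell the ratio was 8.86, past the 2-fold limit, and without the highest cell of each library it was 7.51. In the Siglech-led cluster, with 119 day 28 and 117 day 0 cells, Nkg7 stood at 134 CPM (107 to 165) and 16.5 CPM (7.54 to 31.3), a ratio of 8.12 (4.08 to 18.4). Of these, 28 day 28 and 5 day 0 cells had a Nkg7 UMI. Elane stood there at 126 CPM on day 28 and 23.8 CPM on day 0, which at the ratio of the Elane cluster would carry 17.8 and 2.11 CPM of Nkg7. In B-like clusters Nkg7 stood at 40.1 CPM on day 28 and 18.5 CPM on day 0. The day 0 level of the Siglech-led cluster was thus near that of the B-like clusters. Markers of NK cells in the whole class stood at 218 CPM on day 28 and 370 CPM on day 0. Klrd1 alone supplied 170 of these 234 day 28 UMIs and 266 of these 288 day 0 UMIs. The rest was higher on day 28, where 1 cell had 34 NK marker UMIs. In the Siglech-led cluster Ccl5 stood at 629 and 64.1 CPM and Cd3d at 54.5 and 40.3 CPM. The part of lymphocyte transcripts in the Nkg7 ratio was not tested. Ctsw stood at 24.2 and 14.1 CPM in the whole class (ratio 1.72, under the 2-fold limit).

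Cells that carried several of the genes made up a larger share of NK cells than of T cells. Thinned to 3000 UMIs, 7 of 13 day 28 and 14 of 18 day 0 NK cells had UMIs of at least 3 of the 6 genes. Among CD8 T cells 8 of 29 on day 28 and 139 of 578 on day 0 did, and among other T cells 12 of 49 and 48 of 339. The pair of Nkg7 and Ctsw was found in 5 of 13 and 15 of 18 NK cells, in 10 of 29 and 249 of 578 CD8 T cells, and in 13 of 49 and 67 of 339 other T cells. A granzyme together with Prf1 was seen in 0 of 13 day 28 and 4 of 18 day 0 NK cells. Nkg7 in cells with a granzyme UMI was not set apart in the same way in each class. On day 28 it stood at 1257 CPM in 7 NK cells with a granzyme UMI and 1077 CPM in 6 without, at 1678 and 741 CPM in CD8 T cells (4 and 25 cells), and at 1274 and 732 CPM in other T cells (8 and 41). On day 0 it stood at 2040 CPM in 12 NK cells with a granzyme UMI and 2380 CPM in 6 without, at 698 and 794 CPM in CD8 T cells (7 and 571), and at 1151 and 383 CPM in other T cells (5 and 334). The day 28 T cells with a granzyme UMI were deeper, with medians of 10480 UMIs against 4727 in CD8 T cells and 9258 against 4759 in other T cells, and the part of depth in these values was not tested.

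Outside the 4 classes the 6 genes parted company. There Nkg7 and Srgn were highest in the clusters led by Elane and by Prss34, but not in every granulocyte cluster. Nkg7 stood at 238 CPM on day 28 and 283 CPM on day 0 in a neutrophil-like cluster led by Prtn3. In one led by Ngp, with 5 and 15 cells, it stood at 40.1 and 12.55 CPM. The cluster led by Elane, Ctsg and S100a8 had Nkg7 at 1366 CPM in 288 day 28 cells and 1263 CPM in 62 day 0 cells. Its Srgn stood at 2080.3 and 2306 CPM. That cluster alone held 62.1% of the Nkg7 UMIs of the day 28 library and 27.3% of those of day 0, whereas NK and T cells together held 3.97% and 42.5%. Gzma, Gzmb and Prf1 were each under 1 CPM there in both libraries. The cluster led by Prss34, Mcpt8 and Cpa3, genes of basophils and mast cells, was the only cluster besides those of NK and T cells with Gzmb above 10 CPM. It stood at 20.6 CPM (16 UMIs in 75 cells) on day 28 and 99.8 CPM (32 UMIs in 35 cells) on day 0, a ratio of 0.207 (0.106 to 0.388), and that cluster held 16.5% of the day 28 and 62.7% of the day 0 library's Gzmb UMIs. Over all kept cells Gzmb was at 2.60 CPM on day 28 and 2.69 CPM on day 0. In the plasma cell-like cluster Nkg7 stood at 444 CPM on day 28 and 39.6 CPM on day 0, beside Elane at 3018 and 44.6 CPM. At the Elane cluster's ratio those Elane UMIs would carry 425 CPM of Nkg7 on day 28 and 3.95 CPM on day 0. Across all kept cells Ctsw stood at 5.31 CPM on day 28 and 50.5 CPM on day 0, and CD8 T cells held 11.6% and 59.1% of its UMIs.

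**Figure D3:**
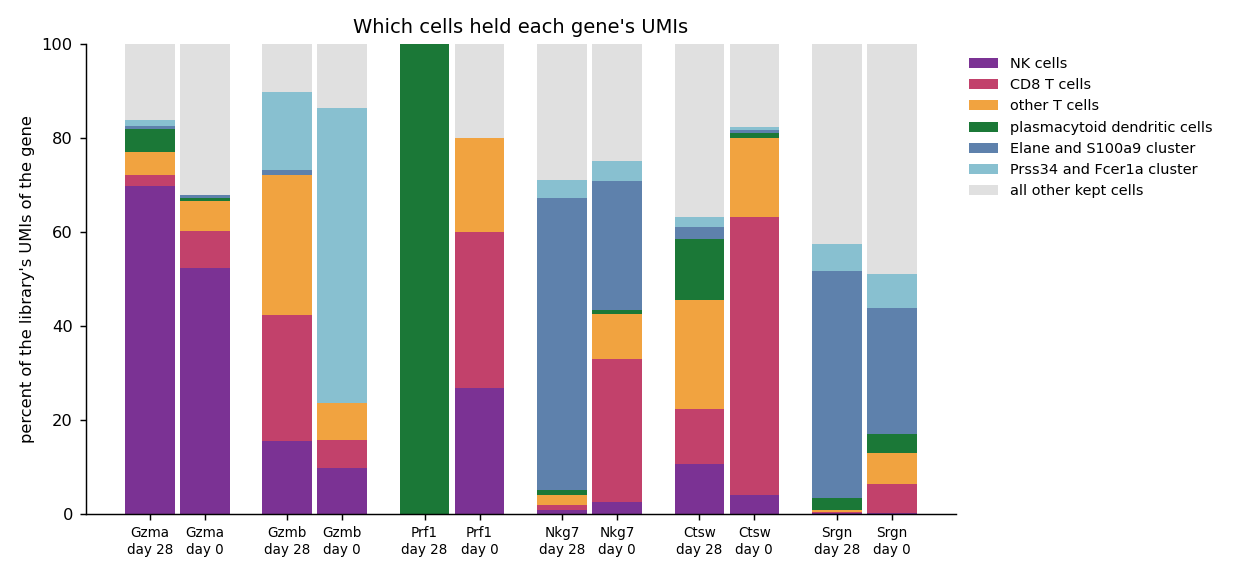
Percent of each library's UMIs of a gene found in the 4 classes, in the Elane and S100a9 cluster, in the Prss34 and Fcer1a cluster and in all other kept cells, with day 28 left of day 0. NK cells held 69.8% of Gzma UMIs on day 28 and 52.4% on day 0, and the Elane cluster 62.1% and 27.3% of Nkg7 UMIs; the Prf1 bar of day 28 stands for 2 UMIs.

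**Figure D4:**
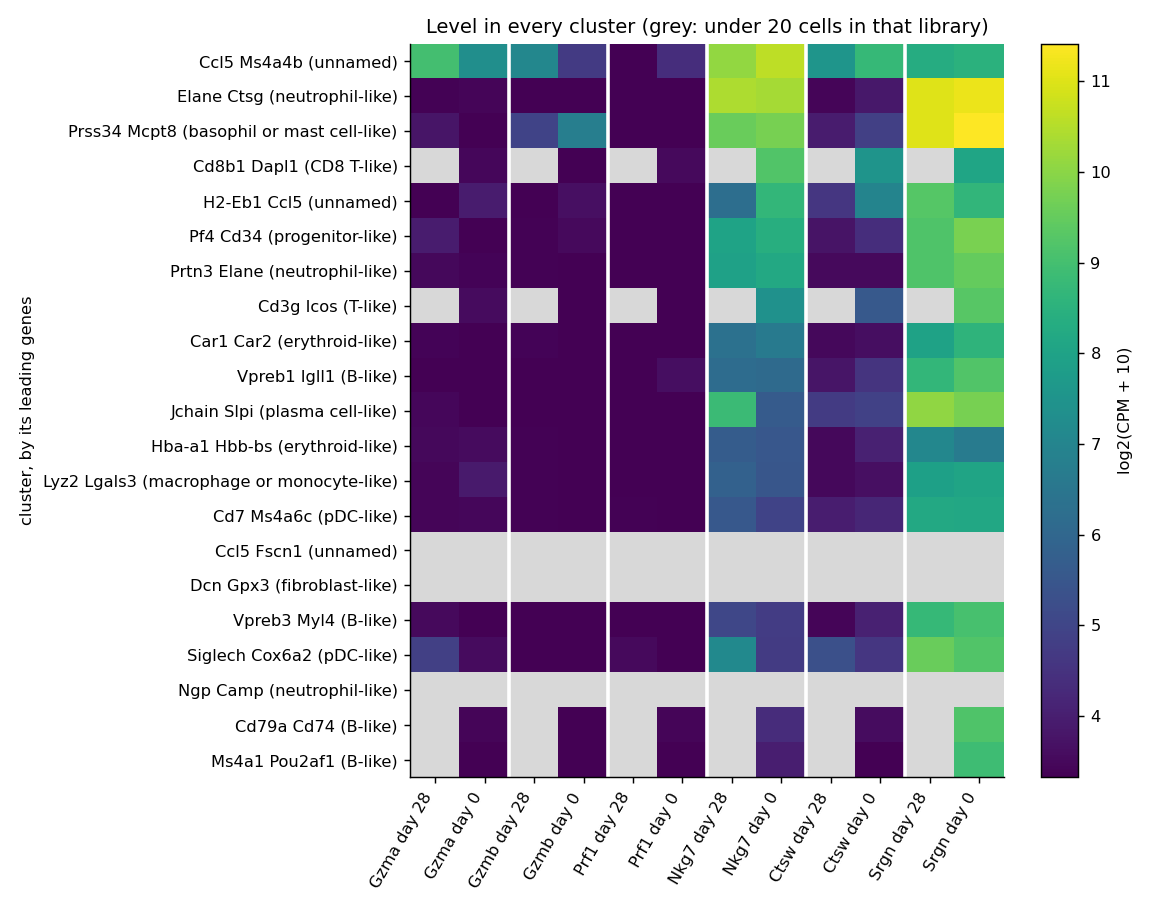
Level of the 6 genes, as log2(CPM + 10), in every cluster (rows, named by 2 leading genes and ordered by Nkg7 on day 0), with day 28 left of day 0 for each gene and grey where a library had under 20 cells. Gzma and Ctsw are highest in the Ccl5 and Ms4a4b cluster, whereas Srgn is high in the Elane and Prss34 clusters as well.

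Other genes of the pathway were read from 8 lists. In NK cells few members had enough UMIs. Of the other granzymes, 2 of 8 genes were detected, and Gzmc had 26 UMIs on day 28 and 0 on day 0, at least 7.19-fold higher against a floor of 3 UMIs. All 26 lay in 1 cell, which had no Gzma or Gzmb UMI and 10 Nkg7 UMIs. Gzmb and Gzmc are related genes, and how reads matching several genes were counted is not given in the sources used here. Among the granzyme inhibitors, Serpinb9, whose product blocks granzyme B, had 5 UMIs on day 28 and 12 on day 0 (ratio 0.346, 0.0954 to 1.05), the 1 of 2 genes read that passed the 2-fold limit. Of 5 cytokine and chemokine genes 2 were lower: Ccl5 at 4039 and 8925 CPM (ratio 0.453) and Xcl1 at 436 and 984 CPM (0.443). The median log2 ratio of those 5 was -0.75, beside -0.16 over all 1930 genes read. Spn, which encodes the mucin CD43 of mature NK cells, had 11 and 4 UMIs (ratio 2.28, 0.676 to 9.83). None of the 2 granule processing genes, the 1 exocytosis gene or the 6 regulators read in NK cells passed the limit, and no death ligand gene had enough UMIs.

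In CD8 T cells 4 of the 5 cytokine and chemokine genes were higher on day 28, with a list median of 1.22 on the log2 scale beside -0.05 over 5632 genes. The background shares given above for this class were 9.77% higher and 15.4% lower. The class differed in make-up, with 22 of 29 day 28 and 105 of 578 day 0 cells in the Ccl5 and Xcl1 cluster. Inside that cluster Ccl4 stood at 466 CPM on day 28 and 168 CPM on day 0 (ratio 2.77, 1.94 to 3.93) and Xcl1 at 313 and 154 CPM (2.04, 1.35 to 3.05), whereas Ccl5 stood at 5827 and 9483 CPM (0.615). There Ifng had 7 UMIs on day 28 and 25 on day 0 (1.07) and Ccl3 had 4 and 34 (0.449, 0.116 to 1.26). The genes named outside NK cells were chosen after their values were seen. In the whole class Ccl4, a chemokine gene, stood at 345 CPM on day 28 and 46.8 CPM on day 0, and Xcl1 at 224 and 44.0 CPM. Both other granzymes read were higher, Gzmk at 51.8 and 8.14 CPM and Gzmm at 86.3 and 28.5 CPM, and all 9 day 28 Gzmk UMIs lay in 1 cell. Of 9 regulators 4 were higher and 1 lower, and the share of higher ones was above the background. Of these, Prdm1 rested on 6 day 28 and 5 day 0 UMIs, and the interval of Zeb2 (0.525 to 9.99) included 1. Of 10 exocytosis genes 1 was higher and 1 lower, which is near the background. In other T cells 1 of 5 cytokine genes (Ifng, 81.6 and 26.6 CPM) and 1 of 2 other granzymes (Gzmk, 23.3 and 2.60 CPM) were higher, and of 11 exocytosis genes 1 was higher and 1 lower, beside 7.6% and 13.1% of all genes read in other T cells. In plasmacytoid dendritic cells 2 of 3 cytokine genes were higher, beside 3.42% of all genes read there, Ccl4 at 4486 and 1909 CPM and Ccl5 at 391 and 51.3 CPM.

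The genes most like each member were ranked by Pearson's r of log2(CPM + 10) over 32 profiles, each 1 cluster in 1 library with at least 20 cells, among 5275 genes. The profiles share 2 libraries and their depths, so r is a description. Gzma was most like Klra7 (0.96), Klra4 (0.96) and Klre1 (0.95), receptor genes of NK cells that are among the 11 NK markers. Gzmb was most like Gzmc (0.89), Spry2 (0.75) and Cuedc1 (0.72), and Prf1 most like the NK receptor genes Klrc1 (0.77) and Klrc2 (0.73) and the kinase gene Yes1 (0.73). Both rankings rest on few UMIs. Prf1 had 2 UMIs on day 28 and 15 on day 0 over all kept cells. All 26 Gzmc UMIs of day 28 NK cells lay in 1 cell, which had no Gzmb UMI. Ctsw was most like Txk (0.96), a kinase of T and NK cells, Cd3d (0.92) and Sidt1 (0.92). Nkg7 was most like Cst7 (0.88), which encodes cystatin F, an inhibitor of granule cathepsins, followed by Pglyrp1 (0.75), an antibacterial granule protein gene of neutrophils, and Atp8b4 (0.72). Srgn was most like Vat1 (0.81), Hdc (0.78), the histamine-forming enzyme gene, and Tuba8 (0.76). With the 18 day 0 profiles alone Gzmb was most like Fcer1a, Prss34 and Cd200r3, and none of its 3 genes over all profiles was among them. Prf1 shared 0 of its 3 genes with the ranking in either library alone, and Ctsw shared 0 with that of day 28 (14 profiles) and 2 with that of day 0. Between members r was highest for Gzma with Ctsw (0.69) and Gzma with Gzmb (0.65), and lowest for Srgn with Gzma (-0.16).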

How the data were processed

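Per the submitters' processing notes, the authors used Cell Ranger 2.1.1 and STAR with build mm10, and the labels name 3' v1 chemistry. The authors deposited un-normalised UMI counts, 1 table per library, and every value is a whole number. No barcode had under 4175 UMIs (day 28) or 3001 UMIs (day 0). Of the 27998 gene identifiers, 27645 matched GENCODE M21.

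A minimum of 500 genes and a maximum of 10% mitochondrial UMIs removed 17 day 28 and 2 day 0 barcodes. Scrublet's own threshold marked 0.303% and 0.150% of barcodes, under 0.5%, so the top-scoring 56 and 57 cells, the number expected for this many barcodes, were left out instead. Cells were clustered with scanpy 1.11.5 and leidenalg 0.10.2 (2000 variable genes without the 6 members, 30 components, 20 neighbours, resolution 0.8) into 21 clusters. T cells had at least 2 Cd3 UMIs and CD8 T cells at least 1 Cd8a or Cd8b1 UMI, inside clusters whose leading list was NK, T or CD8 T. The NK, T and CD8 T lists were taken as 1 for this purpose after seeing that they divided the Ccl5 and Xcl1 cluster. That left 4 day 28 and 11 day 0 cells in no class, and a mixed B and T cluster of 20 and 139 cells was left out. Plasmacytoid dendritic cells had at least 2 Siglech UMIs and at least 1 of Ccr9, Cox6a2, Klk1 or Pacsin1.

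UMIs were summed per class and library and divided by the sum's total. Levels have Poisson intervals, shares Clopper-Pearson intervals and ratios intervals from the conditional binomial, all by scipy 1.17.1. Ratios from 0 UMIs were set against 3 UMIs. The 2-fold calls and intervals were tested on counts simulated from the pooled profile, without spread between cells. The changed genes and the intervals checked there were at 50 CPM or more. That test therefore does not cover sums that rest on single cells, or genes at lower levels. The members and lists were chosen with earlier results of these data known. Genes named are all 6 members, list members past 2-fold in NK cells (at most 4 per list) and the 3 genes most like each member, with the exceptions stated. Promoter letters are from RefSeq (GRCm38.p6), which held windows for 5 of the 6 genes. Alternatives tried were other cell filters, depths, denominators, scalings, gates and a clustering resolution of 1.2.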

Additional observations from a re-analysis of the deposited data

Results flagged for a closer look

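Nkg7 differed in direction between classes. The ratio of day 28 to day 0 was 0.557 in NK cells, against 1.26 in CD8 T cells, 2.13 in other T cells and 1.88 in plasmacytoid dendritic cells. With 1 library per group the difference between the classes was not tested. Inside the Ccl5 and Xcl1 cluster the ratios were 0.553 in NK, 0.747 in CD8 T and 0.702 in other T cells, all on the same side of 1.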

How the results depend on the processing

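No paired analysis was possible because each group is 1 library and no test was run. Of 311 gene ratios recomputed under 18 alternatives, 5 of them chosen after seeing the data, 254 stayed inside the counting interval of the reported ratio. The ratio lay on the other side of 1 from the reported one in 25, and in 3 of these the reported ratio was past 2-fold: in other T cells Gzma (5.30) was 0.433 and Nkg7 (2.13) was 0.702 inside the Ccl5 and Xcl1 cluster, and Gzma was 0.848 without its highest cell. The count of the 6 genes past 2-fold in plasmacytoid dendritic cells (0) was 1 with all barcodes, with top-scoring cells kept, thinned, by mean per-cell CPM, under the stricter gate, with the gate on thinned counts, in clusters without the gate, in cells with no Cd79a, Ms4a1 or Elane UMI without the highest cell of either library and without that of each, and 3 in the Siglech cluster alone. In CD8 T cells (2) it was 1 thinned, with cells under the lowest day 28 total left out, with the gate on thinned counts, in clusters without the gate and in cells with no Cd79a, Ms4a1 or Elane UMI. In NK cells (2) it was 0 with cells under the lowest day 28 total left out, which left 3 day 0 NK cells, and 1 with the gate applied without clusters. In other T cells (3) it was 1 with the gate applied without clusters and without the highest cell of either library, and 0 in cells with no Cd79a, Ms4a1 or Elane UMI, where 18 day 28 and 179 day 0 cells remained and Nkg7 was at 1.36. In those cells the NK ratios of Nkg7 and Ctsw were 0.803 and 0.395. The count of all genes past 2-fold was 1854 in place of 492 in NK cells, 2375 in place of 1419 in CD8 T cells, 2746 in place of 1329 in other T cells and 1935 in place of 614 in plasmacytoid dendritic cells with only 1 UMI asked of each library. At a mean of at least 50 CPM it was 187, 234 and 84 in CD8 T, other T and plasmacytoid dendritic cells. No cluster was NK-like by itself, so clusters without the gate gave no NK value. In CD8 T cells the Gzmb ratio ranged from 28.0 to 208 over the alternatives that gave one. It ranged from 5.95 to 42.4 in other T cells and from 1.21 to 6.96 in NK cells. The CD8 T range leaves out the cells with no Cd79a, Ms4a1 or Elane UMI. All 3 day 28 CD8 T cells with Gzmb had an Elane UMI, so no day 28 Gzmb UMI remained there. In other T cells the day 28 cells with 11, 9 and 5 Gzmb UMIs had an Elane UMI too. The 13 day 28 NK cells limit every NK value, and Prf1 lay near the detection floor.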
